A study of Mus musculus with 8 samples.

Results

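Cyp4a10, Cyp4a12a, Cyp4a14 and Cyp4a31 encode cytochrome P450 omega-hydroxylases of the mouse Cyp4a subfamily. The 4 genes were chosen by name, with Cyp4a12 accepted for Cyp4a12a, out of 16744 genes that had at least 1 probe above background in these livers. They were measured by 8 probes, 1 for Cyp4a14, 2 each for Cyp4a12a and Cyp4a31 and 3 for Cyp4a10. Liver RNA came from male wild-type C57BL/6 mice (C57BL/6J in the study's methods) that were 14 to 17 weeks old when the experiment began. For 4 weeks, 4 mice received standard chow (STD diet, the controls) and 4 received an atherogenic diet (ATH diet), a feed high in fat and cholesterol that, by the study's methods, also contained the bile acid cholic acid. Each mouse was hybridised to 1 array with a single dye, so n = 4 per diet throughout. The study describes this feeding as a model of fatty liver with inflammation that arises without weight gain, so fat, cholesterol and cholic acid act together and are not separated.

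Omega-hydroxylases add a hydroxyl group to the last carbon of a fatty acid chain, using electrons passed on by cytochrome P450 reductase. Medium-chain and long-chain fatty acids treated in this way can be oxidised further to dicarboxylic acids, which peroxisomes shorten, and arachidonic acid becomes the eicosanoid 20-HETE. Cyp4a10 and Cyp4a14 are classical target genes of PPAR-alpha, the fatty acid sensing nuclear receptor of hepatocytes. Cyp4a12a is known as a male-biased enzyme and as the main 20-HETE synthase of the mouse.

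The array's own gene annotation decides how far a probe can be assigned to a single member, because the Cyp4a genes arose by duplication. All 8 probes lay in 1 cluster on mouse chromosome 4, at positions that the array files give on the mm7 genome build. The probe sequences below, 60 bases long in the files, are shown because the members' separate values rest on them. They are given 5′ to 3′, whole for 4 probes and as the last 30 bases for the others.
Cyp4a14 A_51_P238576, end of the probe: ggttgtgttaaaatgcaagttggcgttttt
Cyp4a31 A_51_P254895, end of the probe: AATAAAgttcccagtgtcatgcacaaaaaa
Cyp4a31 A_52_P218449: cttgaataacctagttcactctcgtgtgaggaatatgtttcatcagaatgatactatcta
Cyp4a10 A_52_P340136: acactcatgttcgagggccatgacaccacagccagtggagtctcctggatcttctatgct
Cyp4a10 A_52_P257774, end of the probe: ccactgattctgttgtggagctccaatgtc
Cyp4a10 A_52_P6588: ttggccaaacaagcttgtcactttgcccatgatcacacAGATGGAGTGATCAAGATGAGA
Cyp4a12a A_52_P44914, end of the probe: aagagtcttgccatcttccccacAATAAAg
Cyp4a12a A_51_P433360: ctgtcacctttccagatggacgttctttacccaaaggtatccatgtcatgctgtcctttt
Capitals mark the polyadenylation signal AATAAA in A_51_P254895 and A_52_P44914. In A_52_P6588 they mark a run of 22 bases that is also present, on the opposite strand, in an unnamed probe of the cluster, described with its values below. Apart from that run, no pair of these probes shared more than 10 bases in a row on either strand.

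The positions on mm7 were chr4:114862748-114862807 on the minus strand for A_51_P238576, and on the plus strand for the other probes. For Cyp4a31 they were chr4:114955400-114955459 for A_51_P254895 and chr4:114946658-114946717 for A_52_P218449. For Cyp4a10 they were chr4:114901988-114902047 for A_52_P340136, chr4:114909102-114909590 for A_52_P257774 and chr4:114901279-114901760 for A_52_P6588. For Cyp4a12a they were chr4:114709177-114709236 for A_52_P44914 and chr4:114704243-114705175 for A_51_P433360. A_52_P257774, A_52_P6588 and A_51_P433360 spanned 489, 482 and 933 bases, more than the 60 bases of a probe, so these 3 matched the genome in pieces separated by a gap. Exon and UTR boundaries on this build were not used here. A_51_P254895 is annotated in the files to the reference mRNAs of both Cyp4a31 and Cyp4a10, and both Cyp4a12a probes to those of Cyp4a12a and Cyp4a12b. A_52_P218449 is annotated to Cyp4a31 alone, and A_52_P257774 and A_52_P6588 to the reference mRNA of Cyp4a10. A_52_P340136, the main Cyp4a10 probe, lists no reference mRNA and carries the Cyp4a10 name through another database entry. A_51_P254895 is therefore read as Cyp4a31 together with Cyp4a10, and the Cyp4a12a probes as Cyp4a12a together with Cyp4a12b.

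Depth on an array is set by signal over background and by the number of arrays. Between 72.3% and 77.8% of probes were well above background per array, and values are log2 signals after each array's 75th percentile was subtracted, so 0 is that percentile and differences compare the diets within a probe only. All 4 STD arrays lay on 1 slide and all 4 ATH arrays on another with its own scan, so slide, scan and diet cannot be told apart for any result below. Without scaling, the median difference over all 31063 detected probes was 0.30, and with it the median was −0.15, so a change of that size is shared by much of the array. For scalings other than the 75th percentile, the share of all probes called is not given. Counts of calls under them therefore stand without a background share, and the shift of the whole array enters them. Hepatocyte markers were present: all but 1 of 21 hepatocyte markers were detected, and their median difference was −0.34, or 0.11 without scaling.

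All 8 probes read lower on the ATH diet, and 6 of the 8 passed the test (limma, Benjamini-Hochberg adjusted p under 0.05 over all detected probes). The probe A_52_P218449 entered the test through its STD arrays, and of the 7 probes above background on all 8 arrays 5 passed. Of all probes tested, 4.94% were called lower at this threshold. By main probe, 65.1% of all 16744 genes differed downward, called or not. The fall was deepest for Cyp4a14, at 3.82 on the log2 scale or 14.2-fold, and 1.55 for Cyp4a12a and 1.16 for Cyp4a10, which are 2.93-fold and 2.24-fold. The main Cyp4a31 probe differed by −2.84 (7.15-fold lower) and did not pass. The main probe of a gene is the one with the highest mean over the 8 arrays. No probe of the 4 genes was called at the 1% level of the study's methods, where limma called 0.335% of all probes lower, although all 8 had an unadjusted p under 0.05. With arrays paired by replicate number (the replicate block), all 7 probes above background on all 8 arrays were called. A_52_P218449 was called there too, but it entered through its STD arrays. In that fit 2.71% of all probes were called lower. The unequal-variance test that the methods name called none of the 8 at 5%, with adjusted p between 0.0847 and 0.188, and called 0.0515% of all probes lower.

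**Figure D1:**
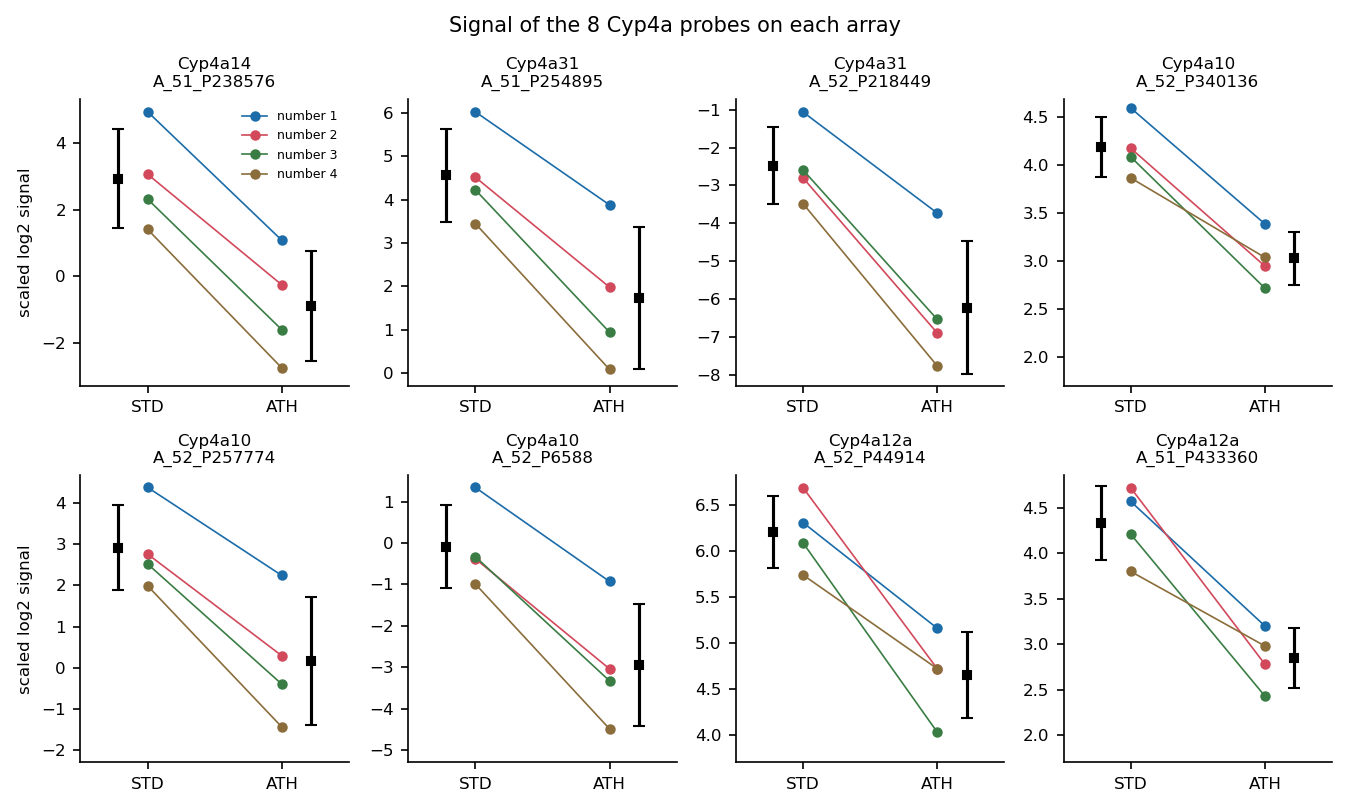
Scaled log2 signal (y axis, a separate range in each panel, relative to the array's 75th percentile) of each Cyp4a probe on the STD and ATH diets (x axis). Each point is 1 mouse, lines join arrays with the same replicate number, and black squares with bars are the mean ± SD of 4 mice. The ATH value lies below its same-numbered STD value in every panel, and the spread among mice of 1 diet is wide for Cyp4a14 (SD 1.5 and 1.66) and narrow for the Cyp4a10 probe A_52_P340136 (SD 0.31 and 0.28).

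Cyp4a14, a PPAR-alpha target that is strongly inducible by fibrate drugs, held rank 3 from the lowest among the 16744 genes by log2 fold change. Its probe read 4.95, 3.07, 2.32 and 1.41 in STD mice 1 to 4. In ATH mice 1 to 4 it read 1.08, −0.26, −1.61 and −2.76. The diets did not overlap, since the lowest STD mouse lay 0.33 above the highest ATH mouse. The means were 2.94 ± 1.5 and −0.89 ± 1.66 (SD, n = 4 each), a difference of −3.82 ± 0.92 (SE) with a limma adjusted p of 0.0426. From highest to lowest, mice of 1 diet differed among themselves by about as much as the diet means did. Same-numbered mice differed by 3.33 to 4.17 with an SD of 0.35. In the fit that paired arrays by their number, the adjusted p was 0.0186. The call was lost (adjusted p 0.062 to 0.102) when any array other than ATH 1 or ATH 2 was left out.

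Cyp4a31, a close relative of Cyp4a10 that lies next to it in the cluster, held rank 10 from the lowest by its main probe. A_51_P254895 read 6.03, 4.52, 4.23 and 3.45 in STD mice and 3.88, 1.98, 0.94 and 0.08 in ATH mice. One ATH mouse lay above the lowest STD mouse, so the diets overlapped. The difference was −2.84 ± 0.81 (SE), with a limma adjusted p of 0.0636 and, with the replicate block, 0.0188. With each array left out, the adjusted p was 0.0329 without ATH mouse 1 and 0.0731 to 0.146 without any other. The probe annotated to Cyp4a31 alone, A_52_P218449, whose specificity was not tested, read −1.06, −2.8, −2.59 and −3.48 in STD mice. In ATH mice it read −3.73, −6.9, −6.54 and −7.77. This probe was well above background on 4 of 4 STD arrays and on 1 of 4 ATH arrays, so it passed the detection filter only through the diet where it is high. Its fitted difference of −3.75 ± 0.84 (SE, adjusted p = 0.0353) is given as a description, since most ATH values are not measured above background. The difference shrank to −1.29 when the background was corrected with an offset that lifts dim spots.

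Cyp4a10, the other classical PPAR-alpha target of the family, gave different values from its 3 probes. A_52_P340136 read 4.6, 4.18, 4.09 and 3.87 in STD mice and 3.39, 2.95, 2.72 and 3.04 in ATH mice. The groups were 0.48 apart, and the difference of −1.16 ± 0.2 (SE) was called with an adjusted p of 0.0179, which rose to 0.0532 without STD mouse 3 and to 0.0501 without ATH mouse 4. The probe A_52_P257774 read 4.38, 2.76, 2.52 and 1.99 against 2.24, 0.29, −0.4 and −1.44. Its difference of −2.74 ± 0.77 (SE) did not pass, with an adjusted p of 0.061 and, with the replicate block, 0.0188. The remaining probe, A_52_P6588, read 1.34, −0.38, −0.33 and −0.99 against −0.93, −3.04, −3.33 and −4.49. It differed by −2.86 ± 0.74 (SE) with an adjusted p of 0.0495, just inside the threshold, and its diets overlapped (lowest STD minus highest ATH mouse −0.06). The difference and the SD among mice were both smaller for A_52_P340136 than for the other 2 probes of the same gene. Within arrays, the changes of A_52_P257774 and A_52_P6588 differed from that of A_52_P340136 by −1.58 and −1.7 on the log2 scale. Neither difference passed an exact two-sided permutation test over the 8 arrays (p = 0.114 for each, 0.2 after adjustment over 7 probe pairs). A_52_P257774 and A_52_P6588 differed from each other by 0.11. Among the 7 probe pairs, 1 did not overlap between diets, the 2 Cyp4a31 probes (A_51_P254895 minus A_52_P218449, 6.82 to 7.32 in STD and 7.48 to 8.88 in ATH mice, exact permutation p = 0.0286, adjusted 0.2), and it rests on the dim ATH values of A_52_P218449. The probe sequences printed above do not settle which of the 3 follows Cyp4a10 transcripts alone, and cross-hybridisation was not tested.

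Cyp4a12a, the male-biased member, was called by both probes. A_52_P44914 read 6.31, 6.69, 6.09 and 5.74 in STD mice and 5.16, 4.72, 4.03 and 4.72 in ATH mice. A_51_P433360 read 4.57, 4.72, 4.21 and 3.8 against 3.2, 2.78, 2.43 and 2.98. Neither probe overlapped between diets, and their changes differed by −0.07. The differences were −1.55 ± 0.27 (SE) and −1.48 ± 0.24 (SE), with adjusted p of 0.0189 and 0.0155. The call of A_52_P44914 was lost without STD mouse 1 (0.0585), STD mouse 3 (0.0537) or ATH mouse 4 (0.0508).

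Of the 7 probes above background on all arrays, 4 did not overlap between diets, A_51_P238576, A_52_P340136 and both Cyp4a12a probes. Over all detected probes, 13.8% had every ATH value below every STD value.

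The order of the differences by main probe, from the lowest, was Cyp4a14, Cyp4a31, Cyp4a12a and Cyp4a10. Each of the 6 pairs of members was compared by the within-array difference of their main probes, which does not depend on the scaling of the arrays, with an exact two-sided permutation test whose smallest possible p is 0.0286. The change of Cyp4a14 minus that of Cyp4a31 was −0.99. The within-array difference lay between −2.03 and −1.08 in STD mice and between −2.83 and −2.24 in ATH mice, without overlap, at the smallest p the test allows, 0.0286 exact, or 0.114 after adjustment over the 6 pairs. The value for Cyp4a14 minus Cyp4a10 was −2.66 and for Cyp4a14 minus Cyp4a12a −2.27 (exact permutation p = 0.0571 and adjusted 0.114 for both). The value for Cyp4a31 minus Cyp4a10 was −1.68 (adjusted exact p = 0.137), for Cyp4a31 minus Cyp4a12a −1.29 (0.229) and for Cyp4a12a minus Cyp4a10 −0.39 (0.129). No pair passed after adjustment, so none of the 4 members was shown to fall by a different amount from its neighbour in the order. The test had little room to show it, since Cyp4a14 minus Cyp4a31 stood at the smallest possible p and still did not pass. The main Cyp4a31 probe is read as Cyp4a31 together with Cyp4a10, so Cyp4a31 minus Cyp4a10 does not compare 2 separate genes. With A_52_P257774 in place of A_52_P340136 for Cyp4a10, the value for Cyp4a12a minus Cyp4a10 turned to 1.19.

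Variation among mice of the same diet sorted the probes in another way. After each diet's mean was subtracted, Pearson's r over the 8 arrays was 0.98 between A_51_P238576 (Cyp4a14) and A_51_P254895 (Cyp4a31), 0.97 with A_52_P257774 and 0.95 with A_52_P6588. The closest probes were A_51_P254895, annotated to Cyp4a31 and Cyp4a10, and the Cyp4a10 probe A_52_P257774, with r of 1 after rounding and differences between diets of −2.84 and −2.74. These probes followed the Cyp4a12a probe A_52_P44914 less closely, with r of 0.59 for A_51_P238576, 0.6 for A_51_P254895, 0.54 for A_52_P257774 and 0.49 for A_52_P6588. The 2 Cyp4a12a probes followed each other with r of 0.95. The Cyp4a10 probe A_52_P340136 lay between, with r of 0.81 to A_51_P238576, 0.79 to A_52_P257774, 0.78 to A_52_P6588 and 0.83 to A_51_P433360. These correlations describe 8 arrays that share slide, position and RNA extract with every other probe, and carry no test.

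The genes outside the subfamily that varied most like each member within the diets were ranked among 15093 genes detected on all 8 arrays. Nearest to Cyp4a14 were Wdr5 (r = 0.991), Maf1 (0.988) and Bcar1 (0.984), with differences between diets of −0.17, −0.22 and −0.21 that were not called. Nearest to Cyp4a31 were Crat (0.992), Zc3h12c (0.989) and Lgals4 (0.986), of which Crat, carnitine acetyltransferase, fell by 1.01. Nearest to Cyp4a10 were Pard6g (0.975), Marf1 (0.966) and Fbxl20 (0.963), and nearest to Cyp4a12a were 4933405D12Rik (0.977), Txn1 (0.975) and Clasrp (0.973), none of them called. For 31 PPAR-alpha targets detected on all 8 arrays the median r with Cyp4a14 was 0.83, and it was 0.72 for 26 genes of the dicarboxylic acid route, 0.71 for 12 female-biased genes, 0.58 for 20 hepatocyte markers, 0.46 for 18 male-biased genes and 0.2 for all 15093 genes outside the subfamily.

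**Figure D2:**
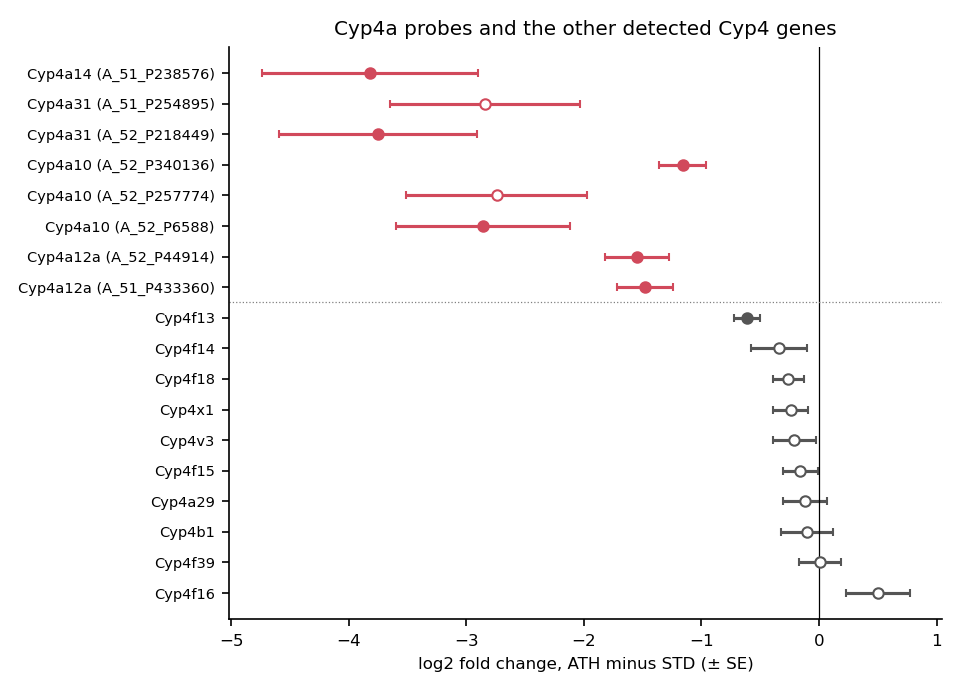
Log2 fold change, ATH minus STD, with its SE (x axis) for the 8 Cyp4a probes (red, above the dotted line) and the main probe of each other detected Cyp4 gene (grey, below). Filled points passed an adjusted p of 0.05. All 8 red points lie at −1.16 or lower, and the grey points lie between −0.61 (Cyp4f13) and 0.5 (Cyp4f16).

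The rest of the Cyp4 family hydroxylates fatty acids, leukotrienes and related lipids. Of 16 further Cyp4 genes listed, 10 were detected. Cyp4a12b is counted as not detected, although both probes named Cyp4a12a are annotated to it too. Of the 10, 1 was called: Cyp4f13 fell by 0.61 ± 0.11 (SE; limma adjusted p = 0.019). That call was lost without scaling (−0.16), with spike-in scaling (−0.3) and with hepatocyte marker scaling (−0.21). Over all genes 5.29% were called lower and 4.04% higher by their main probe. Cyp4f14, Cyp4f15 and Cyp4f18 differed by −0.34 ± 0.24, −0.16 ± 0.15 and −0.26 ± 0.13, and Cyp4v3, Cyp4x1, Cyp4a29 and Cyp4b1 by −0.21 ± 0.18, −0.24 ± 0.15, −0.12 ± 0.19 and −0.1 ± 0.22 (SE). Cyp4f16 and Cyp4f39 differed by 0.5 ± 0.27 and 0.01 ± 0.18. None of these 9 was called. The median over the 10 was −0.18, beside −0.14 over all genes, and it became 0.26 without scaling, where the sign of most of them turned. The median of the 4 Cyp4a members was −2.19, and between −2.22 and −1.75 under the 6 other scalings.

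The cluster on chromosome 4 placed these values side by side. Within 500 kb of the Cyp4a14 probe, 31 probes were detected, and 23 of them belonged to no member. Cyp4x1 and Cyp4a29 on one side and Cyp4b1 on the other, the outer Cyp4 genes of the cluster, were not called. Among the 23, 1 was called: the unnamed probe A_52_P481302, placed between the Cyp4a12a and Cyp4a14 probes, fell by 2.44 ± 0.63 (SE; limma adjusted p = 0.0493). It read 0.06, −1.94, −2.03 and −2.73 in STD mice and −2.86, −4.13, −4.29 and −5.14 in ATH mice, without overlap. The unnamed probe A_52_P988832 lies within the Cyp4a31 stretch on the opposite strand and carries the 22-base run printed in capitals above for A_52_P6588. It differed by −1.39 ± 0.41 (SE; adjusted p = 0.0696, and 0.0326 with the replicate block). The other probes outside the members lay between −1.04 and 0.26.

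**Figure D3:**
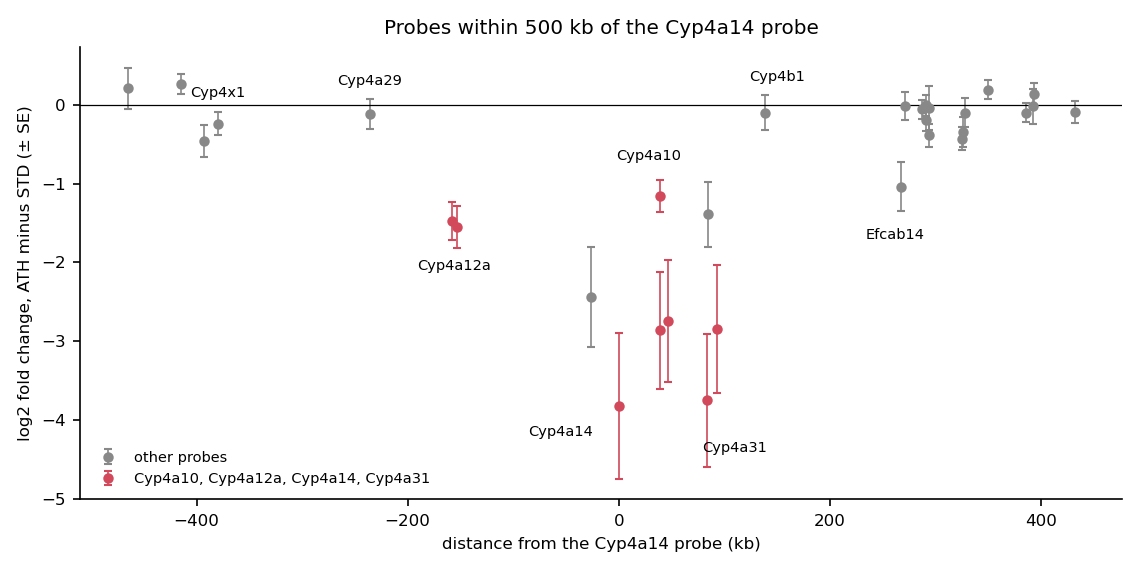
Log2 fold change, ATH minus STD, with its SE (y axis) of each detected probe within 500 kb of the Cyp4a14 probe, by distance along mouse chromosome 4 in kb (x axis). Red points are probes of the 4 members and grey points all others, with selected genes named. The low values lie between the Cyp4a12a and Cyp4a31 probes, and the flanking Cyp4x1, Cyp4a29 and Cyp4b1 stay between −0.24 and −0.1.

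Electrons reach microsomal P450 enzymes through cytochrome P450 reductase, encoded by Por, and the cytochrome b5 system. Of 5 electron donor genes, 2 were called lower: Cyb5b, the outer mitochondrial membrane form of cytochrome b5, by 0.93 ± 0.16, and Cyb5r3, a cytochrome b5 reductase, by 0.76 ± 0.15 (SE; adjusted p = 0.019 and 0.0254). Without scaling Cyb5b was called at −0.49 and Cyb5r3, at −0.31, was not, and the median of the 5 went from −0.76 to −0.31. With hepatocyte marker scaling neither was called. Por itself differed by −0.85 ± 0.26 (SE) and was not called (adjusted p = 0.076).

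PPAR-alpha binds DNA with RXR-alpha as its partner. None of the 15 receptor, partner and co-regulator genes was called. Ppara differed by −0.32 ± 0.31 and Rxra by −0.32 ± 0.13 (SE; adjusted p = 0.523 and 0.144), and both turned to 0.13 without scaling, where 2 of the 15 were called higher.

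Of 33 PPAR-alpha target genes outside the Cyp4a subfamily, 12 were called lower and none higher. With the replicate block 13 were called lower. Of the 33, 31 differed downward, as did 65.1% of all genes. The median of the 33 was −0.71, beside −2.19 for the 4 Cyp4a members. The median of the 33 stayed below 0 under each other scaling, between −0.74 and −0.26. The number called lower went from 12 to 4 without scaling and to 1 with hepatocyte marker scaling. Pdk4, a kinase that shuts down pyruvate dehydrogenase during fatty acid use, fell by 2.38 ± 0.31, and Vnn1, a pantetheinase, by 1.2 ± 0.25. Pex11a, which takes part in peroxisome division, fell by 1.06 ± 0.19, Crat by 1.01 ± 0.17 and Cpt2, of mitochondrial fatty acid import, by 0.87 ± 0.17. Fabp1, the liver fatty acid binding protein, fell by 0.48 ± 0.12 (adjusted p = 0.0464, and 0.0705 with the replicate block), and its difference was −0.03 without scaling and with quantile normalization, not called. Of the 6 named here, Pdk4 alone stayed called whichever array was left out. Other well known targets did not pass. Cpt1a differed by −0.03 ± 0.15 and Ehhadh by −0.29 ± 0.27 (SE), with adjusted p of 0.923 and 0.503. Cpt1a and Ehhadh turned to 0.42 and 0.15 without scaling.

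The enzymes that carry omega-hydroxy fatty acids on to dicarboxylic acids and through peroxisomes were called lower for 9 of 27 detected genes and higher for none, with a median of −0.53. All 27 differed downward, beside 65.1% of all genes. With the replicate block 8 were called lower. Without scaling the median was −0.08 and 3 were called lower, and with hepatocyte marker scaling none was. Acsl1, an acyl-CoA synthetase, fell by 1.05 ± 0.24, Nudt7, a peroxisomal CoA diphosphatase, by 1.06 ± 0.24, and Abcd3, a peroxisomal membrane transporter, by 0.88 ± 0.21 (SE). Pex11a and Crat stand in this list as well as among the PPAR-alpha targets, so the 2 lists are not separate evidence.

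Genes of fatty acid supply moved in both directions, with 5 of 20 called lower and 3 higher. Lpl, lipoprotein lipase, rose by 2.31 ± 0.22, Pla2g4a, the phospholipase that releases arachidonic acid, by 1.74 ± 0.42 and Fabp2 by 1.39 ± 0.3 (SE). Among the 5, Acsl1 fell by the amount given above, Acsl5 by 0.78 ± 0.17 and Slc27a4, a fatty acid transport protein, by 0.68 ± 0.15. With the replicate block 4 of the 20 were called, and Pla2g4a (adjusted p = 0.0533) and Acsl5 (0.0523) were not among them. Without scaling none of the 20 was called lower and 4 were called higher, and the list's median went from −0.37 to 0.08.

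**Figure D4:**
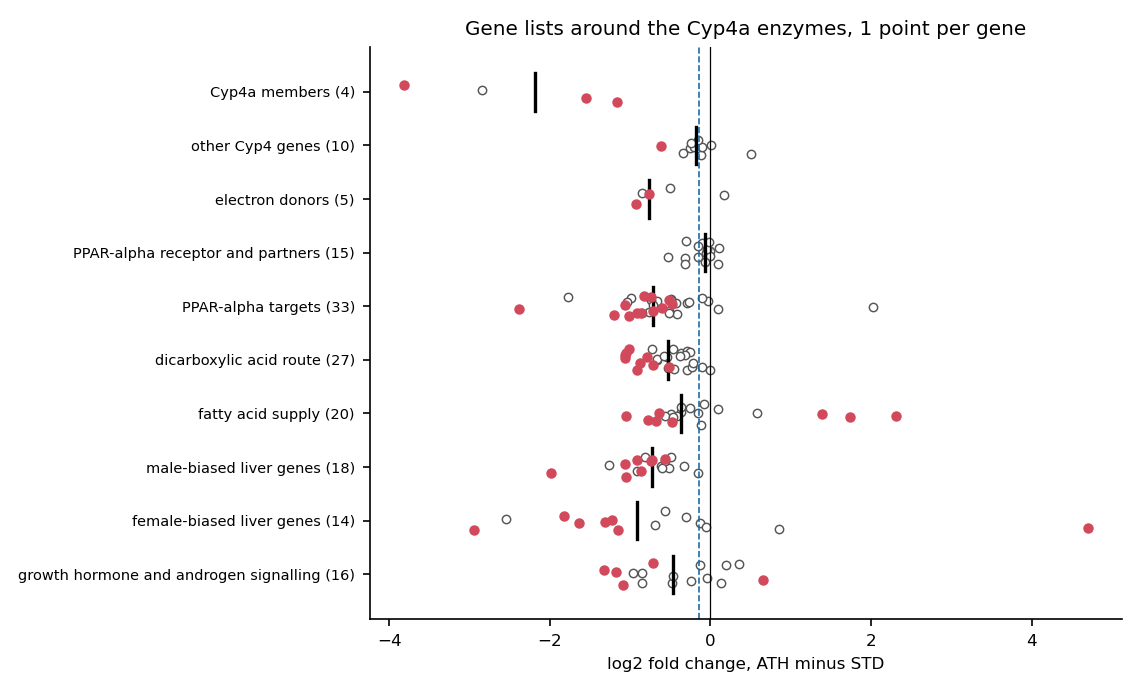
Log2 fold change, ATH minus STD (x axis), of the main probe of each detected gene in 10 gene lists (y axis, number of detected genes in brackets). Red points passed an adjusted p of 0.05, open points did not, black bars are list medians and the dashed line is the median of all genes (−0.14). The Cyp4a median lies at −2.19 and that of the PPAR-alpha targets at −0.71.

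Cyp4a12a is also one of the genes that differ between male and female mouse liver under growth hormone and androgen control. Of 18 detected male-biased genes, 8 were called lower and none higher, with a median of −0.73. The number called lower was 6 with the replicate block, 2 without scaling (median −0.29) and 1 with hepatocyte marker scaling. Susd4 fell by 1.99 ± 0.28, Cyp7b1, an oxysterol hydroxylase, by 1.05 ± 0.15, Ugt2b38 by 0.91 ± 0.18, Ces4a by 0.86 ± 0.19 and Selenbp2 by 0.74 ± 0.13 (SE), and Nudt7, given above, is on this list too. Female-biased genes were lower as well in these male livers, with 6 of 14 called lower, 1 higher and a median of −0.92. The calls were 7 lower and 1 higher with the replicate block, and 6 lower and 2 higher without scaling (median −0.47). With hepatocyte marker scaling they were 3 lower and 1 higher. Cyp2b13 fell by 2.94 ± 0.63, Cyp3a16 by 1.82 ± 0.2, Cyp3a44 by 1.64 ± 0.17 and Cyp3a41a by 1.31 ± 0.15, whereas Ntrk2, a neurotrophin receptor, rose by 4.7 ± 0.5 (SE). Sult3a1, a sulfotransferase counted among the 6, read 1.22 ± 0.2 (SE) lower. It was above background on 1 of 4 ATH arrays, passed the detection filter only through the STD diet and is given as a description. The Cyp3a genes have near-identical relatives that a probe may not separate. In the signalling list, 4 of 16 genes were called lower and 1 higher. Igfals, a carrier subunit of circulating IGF-1, fell by 1.32 ± 0.18, Lifr by 1.17 ± 0.17 and Prlr, the prolactin receptor, by 1.09 ± 0.27, while Jak2 rose by 0.65 ± 0.15 (SE). With the replicate block 2 of the 16 were called, and Prlr (adjusted p = 0.0501) and Jak2 (0.0741) were not among them. Without scaling 2 were called lower and 2 higher, and with hepatocyte marker scaling none was called. The growth hormone receptor Ghr, its transducer Stat5b and its target Igf1 differed by −0.48 ± 0.24, −0.24 ± 0.14 and −0.47 ± 0.19 (SE) and were not called.

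Most macrophage markers moved with the diet in the direction opposite to the Cyp4a genes. In bulk liver, fewer hepatocytes and less RNA per hepatocyte cannot be told apart. Of 23 macrophage and monocyte markers, 22 differed upward and 12 were called higher, with a median of 1.61 over the 23. Cd163 differed by −1.33 ± 0.47 and Clec4f, the smallest rise, by 0.32 ± 0.19 (SE). Neither was called (limma adjusted p = 0.109 and 0.29). The log2 of the 23 markers' summed scaled signal ran from 6.7 to 7.05 in STD mice and 7.57 to 9.85 in ATH mice. Gpnmb, counted in the 12, was above background on none of the 4 STD arrays, so it passed the detection filter only through the ATH diet. As a description, it read at least 110-fold higher on the ATH diet. That bound is set against the lowest signal above background on each STD array. The next 5 were Itgax (3.91 ± 0.8), Marco (3.43 ± 0.76), Trem2 (3.16 ± 0.5), Cd14 (2.56 ± 0.65) and Ccr2 (2.34 ± 0.51, all log2 fold change ± SE). Stellate cell markers had 2 of 14 called higher (Vim and Col3a1, by 2.07 ± 0.43 and 1.74 ± 0.37), cholangiocyte markers 1 of 10 (Sox9, by 1.04 ± 0.24) and endothelial markers 2 of 12 (Lyve1 and Fcgr2b, by 1.21 ± 0.27 and 0.68 ± 0.16). None of 13 T and B cell markers was called. Without scaling 20 of the 23 macrophage and 11 of the 14 stellate markers were called higher. So were 5 of the cholangiocyte, 7 of the endothelial and 4 of the T and B cell markers, and the median of all probes was then 0.30. With hepatocyte marker scaling 3 macrophage and 2 endothelial markers were called and none of the other 3 lists. The medians were nevertheless higher there than in the main scaling. They were 2.01 against 1.61 for macrophage, 0.77 against 0.37 for stellate and 0.63 against 0.23 for endothelial markers. With the replicate block, 8 macrophage markers and 1 each of the stellate and endothelial markers were called, without Cd14 (adjusted p = 0.0524), Ccr2 (0.0551), Vim (0.0503) and Fcgr2b (0.0692). Of 20 hepatocyte markers, 2 were called lower (Tat by 1.05 ± 0.15 and Hpd by 0.61 ± 0.16), and their log2 summed signal ran from 12.66 to 12.72 in STD mice and from 12.08 to 12.53 in ATH mice. Hpd did not pass with the replicate block (0.0532). Scaled to the median of the hepatocyte markers in place of the 75th percentile, Cyp4a14 differed by −3.42 and Cyp4a10 by −0.76, both no longer called (limma adjusted p = 0.0608 and 0.0834), and Cyp4a12a, at −1.15, stayed called (0.0474). The part of cell composition in the remainder was not tested.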

How the data were processed

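Total liver RNA from 8 mice was labelled with Cy3 and hybridised to Agilent Whole Mouse Genome arrays, 1 mouse per array. The authors ran Agilent Feature Extraction 9.5 with its defaults, and the deposited intensity values are background-subtracted and detrended, with dim spots replaced by a surrogate. The deposited log2 table was made by the authors in GeneSpring. After centring each probe, it equalled the values used here (r = 1 on all 8 arrays, median difference at most 0.001 in size). Its scaling and direction are thus known, its per-probe baseline is not, and its array medians ran from −0.04 to 0.16.

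Outlier spots were dropped, log2 signals of spots of 1 probe averaged and each array's 75th percentile subtracted. Of 41174 probes, 31063 were detected on at least 3 of 4 arrays of a diet. Genes were named by accession for 22951 probes, by symbol for 6659, by synonym for 3109 and by gene number for 294, and 8161 were not named. Diets were compared with limma 3.58.1 (R 4.3.3) over all detected probes, without the replicate block, calling an adjusted p under 0.05. Same-numbered arrays, which share a position on their slides, correlated in their deviations from the diet means at 0.10 to 0.23 in all 4 pairs. The block is therefore given where it changed the call of a gene reported here or the count of a list. Labels do not say whether samples were handled separately, so p-values measure the spread between these samples.

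Members and gene lists were chosen with earlier results of these data known. Named genes were all member probes, all detected Cyp4 genes, up to 6 called genes per list with the largest change, 13 genes fixed by name, and the 3 genes varying most like each member. A few genes this rule took are not reported here. The probe comparisons within members were added after seeing the data. The limma step was tested on simulated data. Alternatives covered scaling, background, detection, spots, test, threshold, block, probe and each array left out.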

Additional observations from a re-analysis of the deposited data

Results flagged for a closer look

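No Cyp4a probe had a mouse that stood apart from its diet group. Over 146 groups of 4 mice, for the member probes and the genes the naming rule took, 4 had 1 mouse whose gap to its nearest neighbour took up most of the group's range (Dixon's 95% critical value), and chance alone flags about 1 group in 20. They were Pex11a in ATH mouse 4 (scaled log2 signal 4.37), Nudt7 in ATH mouse 2 (7.53), Cyp7b1 in STD mouse 1 (7.6) and Hpd in STD mouse 1 (7.26).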

How the results depend on the processing

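The 4 members stayed lower on the ATH diet under every alternative run, and the calls were less stable than the direction. With each array left out, the log2 fold change ran from −4.48 to −3.15 for Cyp4a14, −3.56 to −2.29 for Cyp4a31, −1.72 to −1.34 for Cyp4a12a and −1.28 to −1.02 for Cyp4a10, and 1 to 8 of the 8 probes were called. At the 1% threshold 0 of the 8 probes were called, and the changes of −3.82, −1.55 and −1.16 for Cyp4a14, Cyp4a12a and Cyp4a10 lost their calls there and in the methods' t-test (0 of 8 called, 8 at an unadjusted p under 0.05). Hepatocyte marker scaling called 1 of 8 probes (Cyp4a14 −3.42, Cyp4a10 −0.76, neither called) and testing without the detection filter 3 of 8 (Cyp4a14 −3.82, not called). Quantile normalization left Cyp4a14 at −3.75, not called. Cyp4a31 became called with normexp background correction (−2.78), an intensity trend (−2.84), array weights (−3.1) and the replicate block (−2.84). The mean of all its probes (−3.3) and the probe A_52_P218449 (−3.75) also passed, but both rest on a probe above background on 1 of 4 ATH arrays and support no call. Cyp4a10 by A_52_P257774 was −2.74, not called. The pairing by replicate number called all 7 member probes above background on all 8 arrays, and A_52_P218449 too. It changed no other call of a member. Of 47 called genes outside the members that the naming rule took, 11 lost the call with it, 14 stayed called whichever array was left out, and 31 stayed called without scaling, 32 with spike-in scaling and 11 with hepatocyte marker scaling, while with the block the calls over all probes went from 2483 to 1322. Calls over all probes ran from 394 to 3979 with each array left out. The cause was not tested for any of these.

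The differences between members, with each array left out, ran from −1.12 to −0.81 for Cyp4a14 minus Cyp4a31, −2.76 to −1.63 for Cyp4a14 minus Cyp4a12a, −3.2 to −2.04 for Cyp4a14 minus Cyp4a10, −1.84 to −0.72 for Cyp4a31 minus Cyp4a12a, −2.28 to −1.13 for Cyp4a31 minus Cyp4a10 and −0.5 to −0.23 for Cyp4a12a minus Cyp4a10. Cyp4a12a minus Cyp4a10 reversed to 0.74 with the mean of all probes and to 1.19 with A_52_P257774. Exact sign flips over the 4 same-numbered pairs, a permutation test, cannot go below p = 0.125.

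Among other named genes, those near 0 turned sign. Without scaling the values were 0.33 for Cyp4a29, 0.35 for Cyp4b1, 0.11 for Cyp4f14, 0.29 for Cyp4f15, 0.19 for Cyp4f18, 0.24 for Cyp4v3, 0.2 for Cyp4x1, 0.13 for Ppara, 0.13 for Rxra, 0.15 for Ehhadh, 0.42 for Cpt1a and 0.21 for Stat5b. With hepatocyte marker scaling they were, in the same order, 0.28, 0.3, 0.06, 0.25, 0.15, 0.19, 0.16, 0.08, 0.09, 0.11, 0.38 and 0.16. With spike-in scaling they were 0.19 for Cyp4a29, 0.21 for Cyp4b1, 0.15 for Cyp4f15, 0.05 for Cyp4f18, 0.1 for Cyp4v3, 0.06 for Cyp4x1, 0.02 for Ehhadh, 0.28 for Cpt1a and 0.07 for Stat5b. With quantile normalization they were 0.02 for Cyp4a29, 0.13 for Cyp4f15, 0.07 for Cyp4v3 and 0.18 for Cpt1a. Cpt1a was 0.05 with median scaling and 0.0 with normexp, and Cyp4f39 −0.02 with the percentile over spots, −0.11 with normexp and −0.03 with array weights. With each array left out, Cyp4a29 ran from −0.25 to 0.04, Cyp4b1 from −0.26 to 0.07, Cyp4f39 from −0.1 to 0.12 and Cpt1a from −0.11 to 0.04. These scalings moved the median of all probes from −0.15 to 0.30 (none), 0.25 (hepatocyte markers), 0.16 (spike-in) and −0.06 (quantile).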
